A study of Homo sapiens with 10 samples.

Results

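The ERK pathway feedback genes examined here are 10 genes that cells transcribe in response to signalling through the RAS, RAF, MEK and ERK kinases: DUSP4, DUSP5, DUSP6, SPRY2, SPRY4, SPRED1, SPRED2, ETV4, ETV5 and PHLDA1. They were taken as the rows of both expression tables that carry these symbols, a rule that uses no measured value, although the list was drawn up with earlier results of these data known. All 10 were found, among 13029 genes in the ZMAT3 table and among 17642 in the siRNA table, and all 10 were among the 14274 genes tested in the siRNA table.

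The study measured polyadenylated RNA by RNA-seq in HCT116, a human colorectal cancer cell line with wild-type p53, to find the RNAs controlled by p53 and by ZMAT3, an RNA-binding zinc finger protein encoded by a p53 target gene. The ZMAT3 experiment compared 3 libraries of a ZMAT3-WT clone with 3 libraries of a ZMAT3-KO clone. The KO clone was made with CRISPR/Cas9 and a pair of guide RNAs flanking the p53 response element in ZMAT3, so each genotype is represented by 1 clone and differences between clones cannot be told apart from the effect of the knockout. The siRNA experiment compared 2 libraries of HCT116 cells given a control siRNA (siCTRL) with 2 libraries of cells given a pool of 4 siRNAs against p53 (sip53), collected 72 hr after transfection. No library was drug treated, and the sample descriptions of the ZMAT3 libraries carry the tags EV and unt, which the labels do not explain. The p-values measure the spread between cultures of a clone or between transfections of 1 cell line.

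ERK, the last kinase of the cascade, phosphorylates transcription factors in the nucleus, and their targets include inhibitors that act back on the cascade. Dual-specificity phosphatases (DUSPs) remove the activating phosphates from ERK, Sprouty and Spred proteins dampen the steps between receptor, RAS and RAF, and ETV4 and ETV5 are ETS family transcription factors whose genes are themselves induced by the pathway. The transcripts of several of these genes, DUSP6 above all, are widely used as readouts of ERK activity in tumour cells, and HCT116 carries an activating mutation in the RAS pathway.

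The labels were checked against 2 genes. ZMAT3 was at 5.00, 5.20 and 5.26 log2 CPM in the ZMAT3-WT libraries and at 2.25, 2.34 and 2.20 in the ZMAT3-KO libraries, a 7.43-fold lower level. CDKN1A, the p53 target that encodes the cell cycle inhibitor p21, was at 525.0 and 481.1 FPKM in siCTRL and at 34.2 and 37.7 FPKM in sip53, a 14.0-fold lower level on the log2(FPKM + 0.1) scale. In ZMAT3-KO CDKN1A was also lower, by less than 1.5-fold (log2 difference −0.53, limma adjusted p = 2.02e-08). CPM scales a count by library size, and FPKM scales it by library size and transcript length. The siRNA table names no unit, and its values were read as FPKM from the values themselves. Replicates correlated across genes with r of 0.995 to 0.996 in the ZMAT3 experiment, and of 0.964 (siCTRL) and 0.958 (sip53) in the siRNA experiment. Neither table gives read counts, so the depth behind a value is unknown. Of 10 colorectal epithelial markers, 7 had values in the ZMAT3 table, and their summed level was 5845 to 6182 CPM in ZMAT3-WT and 3221 to 3301 CPM in ZMAT3-KO. KRT19, KRT8, KRT18 and ELF3 fell (log2 differences of −1.75, −0.94, −0.82 and −0.65), whereas EPCAM, CDH1 and CDX2 did not pass the test. In the siRNA experiment 8 of the markers had values, and their sum was 3782 to 4029 FPKM in siCTRL and 3608 to 4234 FPKM in sip53. Of the 7 markers tested there, EPCAM was 1.51-fold higher in sip53 (limma unadjusted p = 0.0234, adjusted p = 0.247). Of 9 fibroblast and blood cell markers only COL1A1 had a value in either table, at 9.16 to 10.9 CPM and at 4.08 to 7.06 FPKM. The part of the lower keratin level in the results below was not tested.

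Start regions are shown for the 3 members that passed the test in the ZMAT3 experiment and have a window among the entries used. The entries are from the RefSeq promoter table (build GRCh38.p14). The regions are shown because ETS factors bind DNA around the core GGAA, both those encoded by ETV4 and ETV5 and those phosphorylated by ERK. The table held 6 of the 10 members in 9 windows, and DUSP4, DUSP5, ETV4 and ETV5 had no entry. Each sequence is the 250 bases before the start, read 5′ to 3′ on the strand of the gene, with GGAA and its reverse complement TTCC in capitals. The windows are chr12:89352502-89352751 (minus strand) for DUSP6, chr5:142324248-142324497 (minus strand) for SPRY4 and chr12:76031777-76032026 (minus strand) for PHLDA1. Those of DUSP6 and PHLDA1 lie directly before the gene positions given below. The SPRY4 window lies inside its gene (chr5:142310427-142326455), before a RefSeq start within it, and is not the region before the outermost start.
DUSP6: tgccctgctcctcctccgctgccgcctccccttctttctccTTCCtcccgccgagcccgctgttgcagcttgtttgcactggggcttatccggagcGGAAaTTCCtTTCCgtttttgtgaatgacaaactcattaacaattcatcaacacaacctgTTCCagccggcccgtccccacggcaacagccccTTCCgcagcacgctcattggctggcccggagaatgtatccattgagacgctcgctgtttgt
SPRY4: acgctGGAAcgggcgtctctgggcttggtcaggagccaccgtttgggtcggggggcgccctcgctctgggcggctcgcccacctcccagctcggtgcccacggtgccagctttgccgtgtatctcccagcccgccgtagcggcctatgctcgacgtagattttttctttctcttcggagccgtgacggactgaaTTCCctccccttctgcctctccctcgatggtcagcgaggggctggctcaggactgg
PHLDA1: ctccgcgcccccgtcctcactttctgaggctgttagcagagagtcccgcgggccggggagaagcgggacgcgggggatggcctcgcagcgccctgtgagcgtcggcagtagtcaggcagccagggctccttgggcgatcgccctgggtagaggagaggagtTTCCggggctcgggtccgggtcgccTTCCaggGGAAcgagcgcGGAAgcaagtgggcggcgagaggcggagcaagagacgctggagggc
Counting both strands, the core GGAA occurred 6 times before DUSP6, 4 times before PHLDA1 and 2 times before the SPRY4 start used here. Over all 35116 windows in the table, 92.7% held at least 1 and the median was 3, so its presence does not set these genes apart. The longer form CCGGAA was found before PHLDA1 and in 1 of the 3 SPRY2 windows, and in 14.5% of all windows. None of the 9 windows held the AP-1 motif TGAGTCA (4.2% of all windows) or the CRE motif TGACGTCA (1.65%). None held TGAATGAA (1.4%) or TGAATGGA (0.832%), which are among the octamers recognised by the repressor CIC. Other forms of the CIC octamer were not searched. A match or its absence describes these letters in these windows only.

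The first comparison asked which of the 10 genes differ between ZMAT3-KO and ZMAT3-WT cells. The 3 DUSP genes for ERK phosphatases fell, by 1.58-fold to 2.07-fold, and ETV5 rose 1.60-fold. A further 3 genes, ETV4, SPRY4 and PHLDA1, fell by less than 1.5-fold, and SPRY2, SPRED1 and SPRED2 did not pass the test. A gene was called at an adjusted p under 0.05 (limma, Benjamini-Hochberg over all 13029 genes) with a fold change of at least 1.5. Under this rule 3 of 10 members were lower, against 4.37% of all genes, and 1 was higher, against 4.6%. By adjusted p alone 6 members were lower, against 30.1% of all genes, and 1 was higher, against 28.7%. The groups did not overlap for 7 of 10 members, close to the 64.2% of all genes. The median log2 difference of the 10 genes was −0.22, beside −0.0052 for all genes. In bulk RNA, fewer cells expressing a gene and less RNA per cell cannot be told apart.

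DUSP5 encodes a nuclear phosphatase specific for ERK (gene at chr10:110497907-110511533, plus strand, hg38). It was at 6.86, 6.81 and 6.70 log2 CPM in ZMAT3-WT and at 5.77, 5.75 and 5.71 in ZMAT3-KO. Every KO library lay below every WT library. The log2 difference was −1.05 ± 0.040 (SE, n = 3 and 3, limma adjusted p = 3.04e-10), the largest in size of the 10.

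DUSP6 encodes the cytoplasmic ERK phosphatase MKP-3 (chr12:89347235-89352501, minus strand). Its level was 6.49, 6.58 and 6.50 log2 CPM in ZMAT3-WT and 5.69, 5.67 and 5.65 in ZMAT3-KO. The groups were again separate, and the 3 KO values lay closer together (SD 0.020) than the 3 WT values (SD 0.048). DUSP6 fell by 0.85 ± 0.034 on the log2 scale (SE, limma adjusted p = 5.47e-10).

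DUSP4, whose product is a nuclear phosphatase of ERK and other MAP kinases (chr8:29333064-29350684, minus strand), was at 6.68, 6.70 and 6.69 log2 CPM in ZMAT3-WT. In ZMAT3-KO it was at 6.02, 6.03 and 6.04 log2 CPM. Its replicates were among the closest of the 10 genes, with an SD of 0.0092 in WT and 0.0095 in KO. The log2 difference was −0.66 ± 0.029 (SE, limma adjusted p = 1.16e-09).

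The Sprouty and Spred genes differed little. SPRY4, an inhibitor of receptor tyrosine kinase signalling to RAS (chr5:142310427-142326455, minus strand), was at 5.25, 5.39 and 5.35 log2 CPM in ZMAT3-WT and at 5.09, 5.07 and 5.09 in ZMAT3-KO. All KO values lay below all WT values, and SPRY4 fell by 0.25 ± 0.042 on the log2 scale (SE, limma adjusted p = 0.000222), a 1.19-fold change. SPRY2, the other Sprouty measured here (chr13:80335976-80341126, minus strand), had the lowest log2 CPM of the 10 genes, at 2.52, 2.39 and 2.43 in ZMAT3-WT and 2.50, 2.40 and 2.31 in ZMAT3-KO. Its groups overlapped, and the log2 difference of −0.04 had a 95% interval of −0.21 to 0.13 (limma adjusted p = 0.672).

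SPRED1 and SPRED2 encode membrane proteins that hold neurofibromin, a RAS inactivator, at the membrane. SPRED1 (chr15:38252836-38357249, plus strand) was at 5.69, 5.87 and 5.79 log2 CPM in ZMAT3-WT and at 5.76, 5.89 and 5.74 in ZMAT3-KO. SPRED2 (chr2:65310851-65432637, minus strand) was at 6.23, 6.29 and 6.35 log2 CPM in ZMAT3-WT and at 6.32, 6.38 and 6.35 in ZMAT3-KO. Both pairs of groups overlapped. The log2 difference was 0.016 for SPRED1 (95% interval −0.092 to 0.12, limma adjusted p = 0.802) and 0.058 for SPRED2 (−0.020 to 0.14, limma adjusted p = 0.182). Both intervals end well inside a 1.5-fold change.

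ETV4 and ETV5, close relatives of the PEA3 group of ETS factors, moved in opposite directions. ETV5 (chr3:186046314-186110318, minus strand) was at 6.22, 6.23 and 6.16 log2 CPM in ZMAT3-WT and at 6.89, 6.88 and 6.85 in ZMAT3-KO, the only member with all KO libraries above all WT libraries. It rose by 0.67 ± 0.031 on the log2 scale (SE, limma adjusted p = 2.1e-09). ETV4 (chr17:43527844-43579620, minus strand) was at 5.93, 5.82 and 5.89 log2 CPM in ZMAT3-WT and at 5.45, 5.41 and 5.46 in ZMAT3-KO, and fell by 0.43 ± 0.038 (SE, limma adjusted p = 8.12e-07), a 1.35-fold change. Within a library, ETV5 exceeded ETV4 by 0.27 to 0.41 log2 CPM in ZMAT3-WT and by 1.39 to 1.46 in ZMAT3-KO, so the ratio of their CPM was 2.16-fold higher in KO. An exact permutation test of this ratio, two-sided, gave p = 0.1, the smallest it can give with 3 against 3 libraries. The pair was compared with their separate values known.

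Other annotated genes lie over several members. ETV5 shares its strand with part of DGKG, which was at 3.70 to 3.76 log2 CPM in ZMAT3-WT and 4.02 to 4.10 in ZMAT3-KO. ETV4 lies opposite part of DHX8, at 6.59 to 6.61 log2 CPM in WT and 6.31 to 6.41 in KO. Antisense genes without a value in the tables lie over DUSP6, SPRY4, ETV5 and PHLDA1. Whether the counting used strand is not stated, so the share of reads from these neighbours is uncertain.

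PHLDA1 encodes a pleckstrin homology-like protein induced by mitogens and linked to apoptosis and receptor signalling (chr12:76025447-76031776, minus strand). It had the highest log2 CPM of the 10, at 8.70, 8.69 and 8.68 in ZMAT3-WT and 8.49, 8.50 and 8.49 in ZMAT3-KO. The groups were separate by a margin wider than their spread (SD 0.0090 and 0.0073). PHLDA1 fell by 0.20 ± 0.024 on the log2 scale (SE, limma adjusted p = 1.83e-05), a 1.15-fold change.

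**Figure D1:**
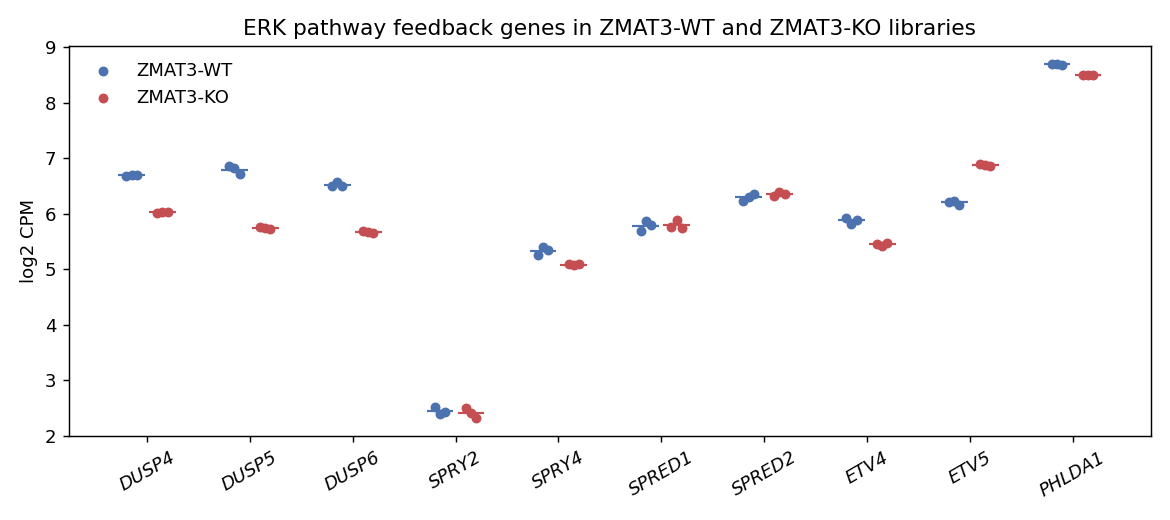
Level of each of the 10 genes (x axis) in log2 CPM (y axis) in the 3 ZMAT3-WT (blue) and 3 ZMAT3-KO (red) libraries. Each point is a library and each bar a group mean. DUSP4, DUSP5 and DUSP6 sit lower in KO, ETV5 sits higher, and the points of SPRY2, SPRED1 and SPRED2 overlap.

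The second comparison asked which of the 10 genes differ after p53 knockdown. DUSP5 was 2.83-fold higher in sip53 than in siCTRL, the largest difference of the 10, and SPRED2 was 1.45-fold lower. These were the 2 members past an unadjusted p of 0.05 in limma, 1 higher against 5.86% of all 14274 genes tested and 1 lower against 9.28%. No member passed an adjusted p of 0.05 (limma, Benjamini-Hochberg), against 0.273% of all genes. The groups did not overlap for 5 of 10 members, against 46.4% of all genes. The median log2 difference of the 10 genes was 0.023 and that of all genes −0.040. Differences here are on the log2(FPKM + 0.1) scale.

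DUSP5 was at 31.7 and 38.8 FPKM in siCTRL and at 118 and 83.9 FPKM in sip53. Both knockdown libraries lay more than 2-fold above both controls. The log2 difference was 1.499 ± 0.242 (SE, n = 2 and 2, limma unadjusted p = 0.00123, adjusted p = 0.107). It was 1.26 to 1.74 when any 1 library was left out, a fit in which 1 group holds a single library that is assumed to vary like the other group. In ZMAT3-KO cells, where ZMAT3 was lower by 7.43-fold, the DUSP5 log2 difference was −1.05, of the opposite sign. ZMAT3 was also lower in sip53, at 3.16 and 1.97 FPKM against 12.0 and 13.6 FPKM in siCTRL. The tables were normalized separately, and the difference between the experiments was not tested.

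The other DUSP members did not pass the test. DUSP6 was at 237 and 133 FPKM in siCTRL and at 121 and 171 FPKM in sip53, and both sip53 values were below the higher siCTRL library while 1 was above the lower. Its log2 difference was −0.30 with a 95% interval of −1.16 to 0.57 (limma adjusted p = 0.744), and it changed sign, to 0.12, in 1 of the 4 fits that left out a library. DUSP4 was at 84.2 and 90.0 FPKM in siCTRL and at 72.1 and 62.9 FPKM in sip53, groups that did not overlap. The DUSP4 log2 difference was −0.37 with a 95% interval of −0.83 to 0.089 (limma adjusted p = 0.413).

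Relative to its relatives, DUSP5 had a different place in the 2 conditions. Within a siCTRL library, DUSP5 was 1.21 to 1.41 log2 FPKM below DUSP4, and within a sip53 library it was 0.41 to 0.70 above it, a 3.65-fold difference in the ratio. The DUSP5 to DUSP6 ratio was 3.47-fold higher in sip53. Exact permutation tests of both ratios, two-sided, gave p = 0.333, the smallest possible with 2 against 2 libraries. In the ZMAT3 experiment the same log2 ratios were lower in KO by 0.39 (DUSP5 to DUSP4) and 0.20 (DUSP5 to DUSP6), each with an exact permutation p = 0.1, the smallest possible.

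SPRED2 was at 25.5 and 21.4 FPKM in siCTRL and at 17.2 and 15.0 FPKM in sip53. The groups did not overlap, and the log2 difference was −0.54 ± 0.193 (SE, limma unadjusted p = 0.0359, adjusted p = 0.292). It missed the unadjusted threshold when library medians were centred (log2 difference −0.46, limma unadjusted p = 0.0557). With any 1 library left out the log2 difference was −0.66 to −0.41, and the unadjusted threshold was missed in those 4 smaller fits, where the spread comes from the other group. SPRED1 was at 8.78 and 11.3 FPKM in siCTRL and at 15.7 and 7.97 FPKM in sip53, which enclosed both controls. The interval of its log2 difference was −0.74 to 1.07 around 0.16 (limma adjusted p = 0.873).

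SPRY2 was at 6.36 and 6.85 FPKM in siCTRL and at 10.8 and 8.36 FPKM in sip53. Both knockdown values were above both controls, and the log2 difference of 0.52 had a 95% interval of −0.0080 to 1.05 (limma unadjusted p = 0.0525, adjusted p = 0.334). It passed the unadjusted threshold when library medians were centred (0.60, limma unadjusted p = 0.0308). Without the second sip53 library, where the spread comes from siCTRL alone, it was 0.70 (limma unadjusted p = 0.0373). SPRY4 was at 38.2 and 29.6 FPKM in siCTRL and at 27.7 and 30.7 FPKM in sip53, overlapping groups. Its log2 difference was −0.20 with an interval of −0.72 to 0.32 (limma adjusted p = 0.701).

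ETV4 and ETV5 did not part after p53 knockdown. ETV5 was at 42.4 and 37.2 FPKM in siCTRL and at 36.9 and 42.9 FPKM in sip53, and ETV4 at 38.6 and 33.8 FPKM in siCTRL and at 31.8 and 43.6 FPKM in sip53. In both genes the groups overlapped. The log2 difference was 0.0014 for ETV5 (95% interval −0.48 to 0.48) and 0.044 for ETV4 (−0.52 to 0.61), with limma adjusted p of 0.999 and 0.949. The log2 ratio of ETV5 to ETV4 differed by −0.043 between sip53 and siCTRL. PHLDA1 was at 68.1 and 61.5 FPKM in siCTRL and at 76.0 and 83.3 FPKM in sip53. The PHLDA1 groups did not overlap, and the log2 difference of 0.30 had an interval of −0.16 to 0.75 (limma adjusted p = 0.494).

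**Figure D2:**
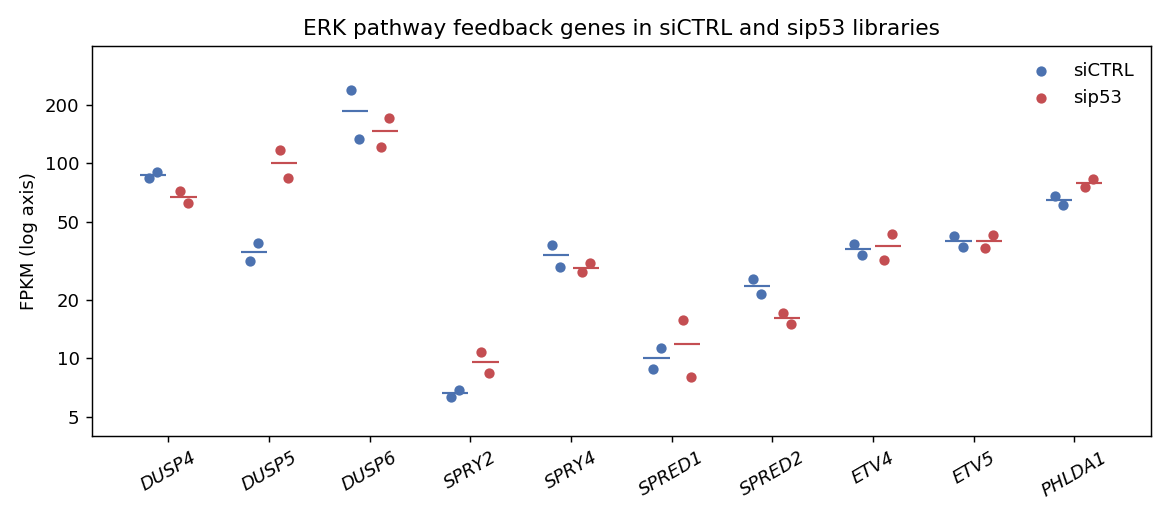
Level of each of the 10 genes (x axis) in FPKM on a log axis (y axis) in the 2 siCTRL (blue) and 2 sip53 (red) libraries. Each point is a library and each bar a group mean. DUSP5 moves from 31.7 and 38.8 FPKM to 118 and 83.9 FPKM, whereas the points of DUSP6, SPRY4, SPRED1, ETV4 and ETV5 overlap between groups.

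The intervals differ in width between the experiments. In the ZMAT3 experiment the SE of the 10 log2 differences was 0.024 to 0.080, and in the siRNA experiment it was 0.180 to 0.358. The siRNA intervals of DUSP4, DUSP6, SPRY4, SPRED1 and ETV4 cover both 0 and the value measured in ZMAT3-KO. For ETV5 the siRNA interval ended at 0.48, below the 0.67 of ZMAT3-KO. For PHLDA1 it began at −0.16, above the −0.20 of ZMAT3-KO, and the intervals of DUSP5, SPRY2 and SPRED2 did not cover the ZMAT3-KO value either. The ZMAT3-KO values have intervals of their own. Those of PHLDA1 (−0.250 to −0.145) and SPRY2 (−0.21 to 0.13) overlapped the siRNA intervals of the same genes. The difference between the experiments was not tested for any gene.

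**Figure D3:**
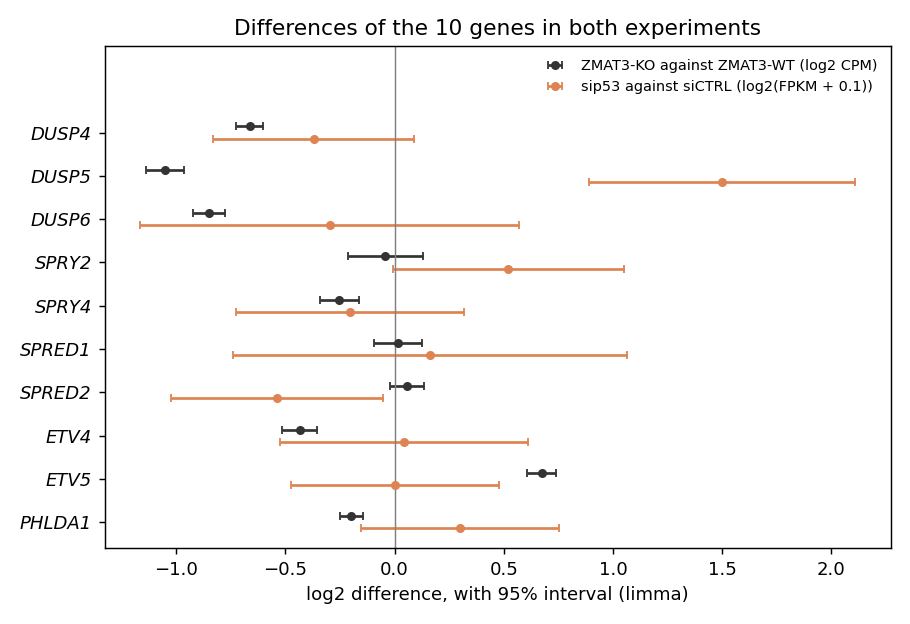
Log2 difference of each gene with its 95% interval (x axis) for ZMAT3-KO against ZMAT3-WT (black, log2 CPM) and sip53 against siCTRL (orange, log2(FPKM + 0.1)). DUSP5 lies at −1.05 in the first comparison and at 1.499 in the second, and the orange intervals of 8 genes cross 0.

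FPKM is scaled by transcript length, so the siRNA table also allows levels of different genes to be set in order. In siCTRL the order by mean FPKM was DUSP6 (185), DUSP4 (87.1), PHLDA1 (64.8), ETV5 (39.8), ETV4 (36.2), DUSP5 (35.3), SPRY4 (33.9), SPRED2 (23.4), SPRED1 (10.1) and SPRY2 (6.61). The ranges of ETV5, ETV4, DUSP5 and SPRY4 overlapped from one to the next, whereas all other neighbours were separate in the 2 libraries. In sip53 DUSP5, at 100.7 FPKM, stood directly after DUSP6, at 146 FPKM, and ahead of PHLDA1 (79.7) and DUSP4 (67.5). Among the lowest 3 genes in sip53, the range of SPRED1 (7.97 to 15.7 FPKM) overlapped those of SPRED2 (15.0 to 17.2 FPKM) and SPRY2 (8.36 to 10.8 FPKM), which were separate from each other.

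Other genes of the pathway were described from lists written from general knowledge. Of 28 components of the cascade, from the adaptors upstream of RAS to the kinases downstream of ERK, only GAB1 was called in ZMAT3-KO. This is 3.57% of the list, beside 4.6% of all genes called higher. GAB1, a docking protein for receptor tyrosine kinases, had a log2 difference of 0.89 and a low level of at most 1.09 log2 CPM. By adjusted p alone 14 rose and 7 fell, against 28.7% and 30.1% of all genes, and the list median was 0.083. Of 11 inhibitors of RAS and RAF none was called at 1.5-fold by limma adjusted p, 3 rose and 3 fell by adjusted p alone, near the shares of all genes, and 6 were under an unadjusted limma p of 0.05, as were 8229 of all 13029 genes. Of the 7 other DUSP genes for MAP kinase phosphatases, 2 were called lower at 1.5-fold in ZMAT3-KO, against 4.37% of all genes, and 1 higher, against 4.6%. The lower ones were the immediate early genes DUSP2 (−0.87) and DUSP1 (−0.69). The higher one was DUSP8 (0.62), which acts mainly on stress kinases. Of 5 measured relatives of the Sprouty, Spred, ETV and PHLDA members, only SPRED3 was called (0.74), at a low level of at most 1.33 log2 CPM. By adjusted p alone 2 of the relatives rose and 3 fell. SPRY3 had no value.

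A list of 16 further genes was taken as outputs of ERK signalling. It also holds ELK1, ELK3 and ELK4, which encode ETS factors that ERK phosphorylates, so not every gene in it is a known output. In ZMAT3-KO 2 rose and 3 fell at 1.5-fold, against 4.6% and 4.37% of all genes. By adjusted p alone 5 rose and 7 fell, against 28.7% and 30.1%. HMGA2, a chromatin protein, rose by 1.10 log2 units and VGF, a neuropeptide precursor, by 0.85. The cytokine gene LIF fell by 0.97, the immediate early gene IER3 by 0.81 and the receptor tyrosine kinase gene EPHA2 by 0.60. The list median was −0.032.

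In the siRNA experiment, by unadjusted p in limma, 3 of 28 cascade components were lower in sip53. This is 10.7%, near the 9.28% of all genes. They were the adaptors SHC1 (−0.92) and FRS2 (−0.86) and the scaffold KSR1 (−0.76). None of the 11 RAS and RAF inhibitors passed, at the unadjusted p of 0.05 or at the adjusted one. Of the 7 other DUSP genes 1 was higher, against 5.86% of all genes: DUSP9 (0.57), which encodes a cytoplasmic ERK phosphatase. Of the 5 measured relatives 2 were lower, against 9.28%: SPRED3 (−1.88) and PHLDA3, a known p53 target (−1.85). SPRED3 was at a low level, 1.85 and 1.64 FPKM in siCTRL and 0.37 and 0.43 FPKM in sip53. Of the 16 genes in the output list 3 were higher and 4 lower, against 5.86% and 9.28% of all genes. The 4 lower genes include ELK4 (−0.45). The largest differences were CCND1, encoding cyclin D1, at −0.95, VGF at 0.83, the ephrin receptor gene EPHA4 at −0.71 and the uridine phosphorylase gene UPP1 at 0.70. No gene of these lists passed an adjusted p of 0.05 in limma, and 13 of 67 passed the unadjusted one, beside 2161 of 14274 over all genes.

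**Figure D4:**
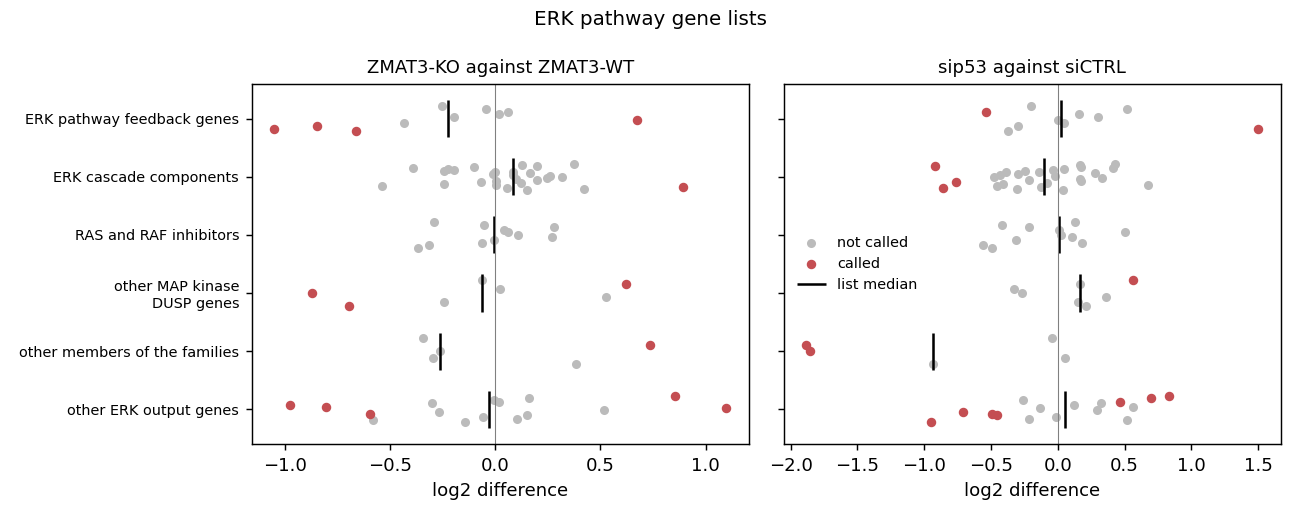
Log2 difference (x axis) of each gene in the 10 feedback genes and 5 other ERK pathway lists (y axis), for ZMAT3-KO against ZMAT3-WT (left) and sip53 against siCTRL (right). Red points were called (left: limma adjusted p under 0.05 and 1.5-fold, right: limma unadjusted p under 0.05), grey points were not, and black bars are list medians. The feedback genes hold 3 called points below 0 and 1 above on the left, and 1 on each side on the right.

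DUSP6 was also used as the reference for likeness, as a common transcript readout of ERK. Each gene was expressed as its log2 difference from its own control mean, and distances to DUSP6 were taken over the 10 libraries for 11370 genes present in both tables. The nearest genes outside the members were HTR1D, MTUS1, LETM2, TEF and TNIK, at Euclidean distances of 0.350 to 0.422 log2 units. The 5 genes were chosen by this distance over the same libraries, so their likeness to DUSP6 follows from the choice. All 5 fell in ZMAT3-KO, with log2 differences from −0.86 (TNIK) to −0.69 (TEF). None passed the test in sip53, where their groups overlapped. In all 5, as in DUSP6, the first siCTRL library was above the other, and the first sip53 library was below the other. LETM2 was at 23.9 and 13.8 FPKM in siCTRL and at 12.9 and 22.3 FPKM in sip53. The share of the likeness that rests on this pattern was not tested. A distance describes these 10 libraries only.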

How the data were processed

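PolyA-selected RNA of HCT116 cells was sequenced in 10 libraries, grouped by genotype label. For the ZMAT3 libraries the authors trimmed reads with Cutadapt, aligned them with STAR to hg38 with GENCODE annotation and quantified them with RSEM. What was deposited for them is log2 CPM, with 1 shared distribution across the 6 libraries. The siRNA table names no unit, and its deposited values were read as FPKM from the values themselves. Aligner and build for these libraries are not given in the sources used here, although the submitters' processing notes list CASAVA 1.8.2, TopHat2 2.0.8, FastQC 0.11.2, hg19 and hg38 without a role. Neither table keeps read counts, so no depth, counting interval or count test could be given. The authors' 10 columns of their own comparisons (fold changes, test statistics and p-values) were not used, and 0 per-sample columns were unmatched.

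limma 3.58.1 in R 4.3.3 (lmFit, eBayes with a variance trend, two-sided) was fitted to each table separately, on log2 CPM of 13029 genes and on log2(FPKM + 0.1) of the 14274 genes that averaged 0.5 FPKM or more. Intervals of 95% are from that fit. The fits were tested on simulated data. Gene positions are from GENCODE 44 on hg38. Motifs were searched on both strands.

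The members, lists and tests were chosen with earlier results of these data known. Named were all members, ZMAT3 and CDKN1A, up to 4 called genes of each other list with the largest differences, and the 5 genes nearest to DUSP6. EPHA2 in ZMAT3-KO, ELK1, ELK3, ELK4, the further cell type markers, DGKG and DHX8 fall outside this rule and were named after their values were seen. The knocked-down gene itself is not reported here. Alternatives were the pseudocount, the filter, centring, the variance trend, the replicate block, the thresholds and leaving out each library.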

Additional observations from a re-analysis of the deposited data

How the results depend on the processing

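In the ZMAT3 experiment the 4 called members (1 higher, 3 lower) were 1 (0 higher, 1 lower) with a fold threshold of 2, and 7 (1 higher, 6 lower) with none. With a pseudocount of 1, a filter at a mean log2 CPM of 0, centred medians, no variance trend, a replicate block or any library left out, the counts were those of the report. The filter and the centring could hardly change them. Every member lay above a mean log2 CPM of 0, and the library medians differed between the groups by −0.00052 log2 units. In the siRNA experiment the 2 members past the unadjusted p were 1 without a variance trend, 1 with the replicate block and 0 at the adjusted p of 0.05. They were 1 to 2 with a library left out, of which 1 to 2 were higher and 0 lower, in fits where the lone library of a group is assumed to vary like the other group. Higher members were 2 with centred medians and 0 at the adjusted p. Lower members were 0 with centred medians, without a variance trend, with the replicate block and at the adjusted p. Centring changed the split over all genes from 836 higher and 1325 lower to 1120 and 1048, and the replicate block to 434 and 650.

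Same-numbered libraries did not deviate together in the ZMAT3 experiment, with r of −0.093 to −0.022. In the siRNA experiment they deviated in opposite directions, with r of −0.616. The numbers were therefore not used as pairs. A crossed replicate block, chosen after seeing the data, gave 6 members (3 higher, 3 lower) and 2410 higher and 3128 lower genes in all. The cause of these changes was not tested.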

Other observations

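The following genes were chosen after their values were seen. MAPK3, which encodes the kinase ERK1, was higher in ZMAT3-KO by less than 1.5-fold, with a log2 difference of 0.26 (limma adjusted p = 0.00038). After p53 knockdown it did not pass the test, at 76.4 and 44.1 FPKM in siCTRL and at 43.3 and 75.5 FPKM in sip53, groups that overlapped. EGR1, an immediate early transcription factor gene induced by ERK, was lower in ZMAT3-KO at a log2 difference of −0.58 (limma adjusted p = 1.13e-06), just short of 1.5-fold. DUSP16, which encodes a phosphatase of the JNK and p38 kinases, was higher by 0.53 (limma adjusted p = 9.51e-07).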
